A study of Homo sapiens with 39 samples.

Results

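A375 is an established human melanoma cell line, and clones 1.1 and 1.2 are separate lines of A375 cells that carry the same deletion label, R1_del, for an enhancer region of SOX10. The libraries of these clones, 3 of clone 1.1 and 4 of clone 1.2, were taken by their titles and make up 7 of the 39 libraries of the series. The other A375 libraries, used for orientation, are 4 of undeleted WT cells, 4 of clone 4.1 and 3 of clone 4.2, the last 2 clones labelled R4_del. No drug, time course or other treatment is named in the labels. Each line is 1 clone and its libraries repeat that clone, so the p-values measure the spread between libraries, which may be technical. Since the deletion label is the same on both sides, the comparison asks how far clones of one deletion label differ. The labels do not say how many alleles were cut in either clone.

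SOX10 is a transcription factor of the neural crest, the embryonic cell population that gives rise to melanocytes, and melanomas commonly keep it on. Melanoma cells move between pigmented, neural-crest-like and undifferentiated expression states, and the level of SOX10 and of its target MITF, the main regulator of pigment genes, is part of what defines these states. A clone grown from a single cell carries that cell's chromosome copies and silencing marks with it. Cancer-testis genes, for instance, are normally silenced outside the germ line and are switched on in many melanomas.

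Values are in TPM, a share of each library corrected for transcript length. Tests were run on log2(TPM + 1), and differences are given as clone 1.2 minus clone 1.1, so that a positive value is higher in clone 1.2. A call required a log2 difference of 1 or more in size together with an adjusted p below 0.05 (limma, Benjamini-Hochberg over 16692 tested genes). Differences on this scale understate the change of genes at low TPM. The depth is unknown, because TPM carries no read counts. Gene positions are those of GENCODE 29 on GRCh38.

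Both clones carried the marks of A375. Of 12 genes that separate WM115 WT from A375 WT cells, 0 reached 1 TPM in any of the 7 libraries, and of 14 genes that mark A375, 13 to 14 did. SOX10, CSPG4, S100A1 and S100B, markers of melanoma cells, were present in every library, while the pigment genes TYR and MLANA were at 0 and under 1 TPM. The pigment gene PMEL was at 0.298 to 0.641 TPM in clone 1.1 and at 1.02 to 2.54 TPM in clone 1.2. It was not called (limma, log2 difference 0.81, adjusted p = 0.040), being under the size of a call. The immune, endothelial and keratinocyte markers PTPRC, CD3E, CDH5, TP63 and DSG3 were all under 0.2 TPM. The endothelial markers PECAM1 and VWF reached 1.07 and 0.482 TPM, and the keratinocyte marker KRT5 reached 0.704 TPM. CD68, LYZ, KRT10 and KRT14 were present throughout, and the endothelial marker KDR was at 0.240 to 1.64 TPM. The keratinocyte marker SFN was called higher in clone 1.2, at 4.76 to 8.46 TPM against 0.989 to 2.84 TPM (log2 difference 1.4, adjusted p = 0.0014). Summed fibroblast markers were 1.94 to 3.78 TPM in clone 1.1 and 10.2 to 15.8 TPM in clone 1.2, of which LUM and COL1A1 were called. COL1A2 and COL3A1, which fibroblasts make together with COL1A1, stayed at or under 0.106 TPM in both clones.

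The libraries of clone 1.1 were less alike than those of clone 1.2. Across genes, library 1 of clone 1.1 correlated at 0.959 and 0.948 with libraries 2 and 3 of its own clone, below its 0.981 with a library of clone 4.2. Libraries 2 and 3 of clone 1.1 correlated at 0.979, also below their 0.984 and 0.982 with libraries of clone 4.2. The clone 1.2 libraries correlated at 0.962 to 0.984. Between the clones the range was 0.918 to 0.964. Mitochondrially encoded genes took 1.41%, 3.43% and 1.42% of the TPM in clone 1.1 and 1.52%, 1.87%, 4.92% and 4.05% in clone 1.2. Of 123 called genes chosen by the naming rule, 37 lost their call without library 2 of clone 1.1, and 5 to 19 without any other single library of these clones.

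Of the 16692 genes tested, 1028 were called, or 6.16%. Clone 1.2 was the higher one for 782 of them (4.68% of tested genes) and clone 1.1 for 246 (1.47%), so that 76.1% of the calls lay on the side of clone 1.2. Under quantile normalization this split was 522 against 386, or 57.5%. The library values of both clones did not overlap at all for 957 of the called genes, against 22.9% of all tested genes. By limma, 5075 of the 16692 genes had an unadjusted p under 0.05. Protein-coding genes made up 808 of the calls and long non-coding RNAs 165. Without library 1 of clone 1.1 the count was 1456, and without library 2 it was 670. With libraries of a mitochondrial share under 2.5% only, which leaves 2 libraries of each clone, it was 236, and with that share as a term in the fit of all libraries it was 1019. In such bulk samples, fewer cells of a type and less RNA per cell cannot be told apart.

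**Figure D1:**
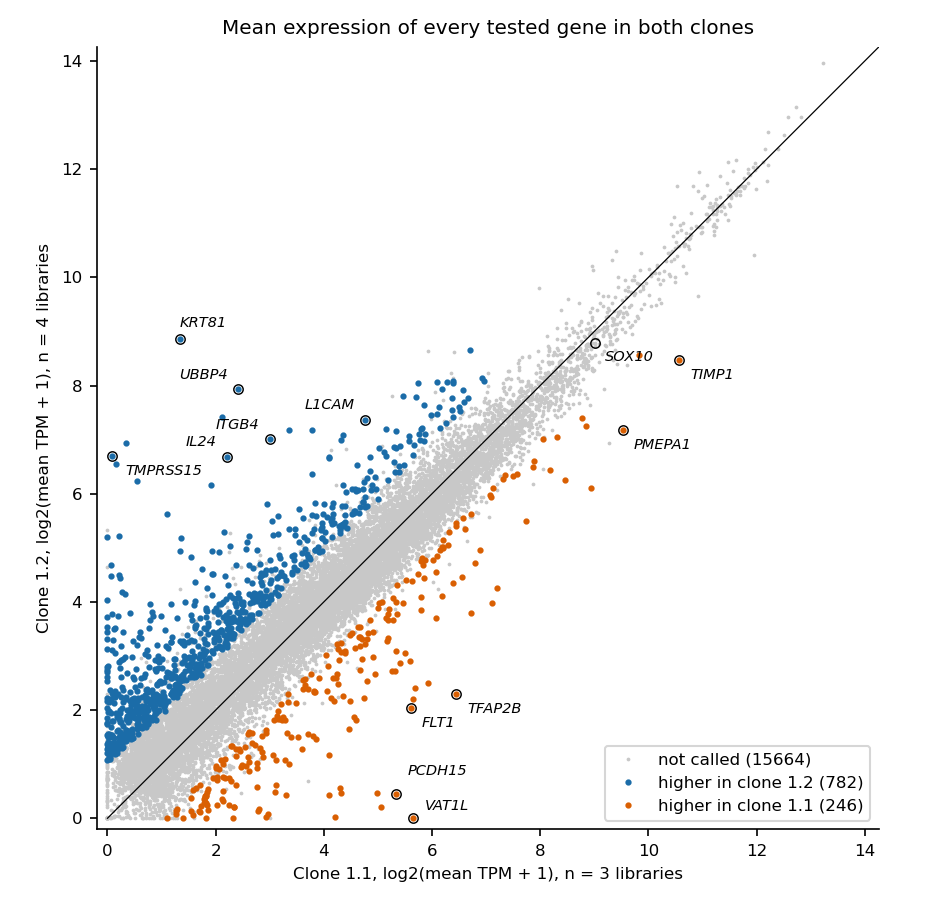
Each point is 1 of 16692 tested genes, with log2 of the mean TPM plus 1 in clone 1.1 (3 libraries) on the horizontal axis and in clone 1.2 (4 libraries) on the vertical axis. The 782 genes called higher in clone 1.2 (blue) reach from silent to high expression in clone 1.1, the 246 called higher in clone 1.1 are orange, and SOX10 lies near the line of equal expression.

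Fewer genes were called between either R4 clone and clone 1.1 than between the R1 clones. The same fit called 465 genes between clones 4.1 and 1.1 (2.79%) and 52 between clones 4.2 and 1.1 (0.312%). Against clone 1.2, it called 1299 for clone 4.1 (7.78%) and 821 for clone 4.2 (4.92%). The other pair with a shared deletion label, clones 4.1 and 4.2, gave 373 calls (2.23%). Against WT cells, 122 genes were called in clone 1.1 (0.731%) and 669 in clone 1.2 (4.01%). These comparisons share libraries and are set side by side only, since the differences between the counts were not tested.

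For many of the called genes clone 1.2 was the one at the edge of the A375 libraries. Its 4 libraries lay above every one of the 14 other A375 libraries for 356 of the 782 genes it had higher, and below all of them for 124 of the 246 genes it had lower. Over all tested genes those shares were 3.87% and 1.94%. Clone 1.1 lay below all 15 other libraries for 47 of the 782 genes, and above all of them for 13 of the 246. Over all tested genes, clone 1.1 did so for 0.887% and 0.27%. The called genes were chosen by the difference between these clones, so larger shares among them follow in part from that choice. The libraries of clone 1.1 were also less alike, and the effect of their spread on these counts was not tested. The WT mean was nearer to clone 1.1 than to clone 1.2 for 763 of the 1028 called genes (74.2%, against 54.4% of all tested genes).

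SOX10 itself (ENSG00000100146, chromosome 22, 37970686 to 37987422, GRCh38) did not pass the test between the clones. Its level was 667, 491 and 381 TPM in clone 1.1 and 441, 406, 473 and 451 TPM in clone 1.2, with 630 to 706 TPM in WT cells. The ranges of the clones overlapped, and all 7 values but library 1 of clone 1.1 lay below the WT range. The log2 difference was -0.18 (SE 0.16, adjusted p = 0.48, 95% interval -0.52 to 0.17). An exact two-sided permutation test gave p = 0.51, where 3 libraries against 4 cannot go below 0.057. Without library 1 of clone 1.1 the sign turned, to 0.03. Of the 46 tested genes that start within 1 Mb of SOX10, 0 were called by limma and 16 had an unadjusted p under 0.05. Over all 16692 tested genes, 5075 had such a p, so 16 of 46 is near the share of all genes. The median difference of the 46 genes was 0.23, against 0.05 for all tested genes.

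MITF (chromosome 3, 69739435 to 69968337) was 7.53, 7.41 and 10.3 TPM in clone 1.1 and 14.9, 16.5, 14.9 and 19.7 TPM in clone 1.2. The WT libraries held 18.7 to 26.7 TPM. Every clone 1.2 value lay above every clone 1.1 value, with a log2 difference of 0.90 (SE 0.19, adjusted p = 0.0058) that stayed just short of a call. Of 14 tested melanocytic genes, 1 was called in each direction (14.3%, against 6.16% of all tested genes), and their median was 0.03. GPNMB, a lysosomal glycoprotein of melanocytes, had means of 39.4 and 114 TPM in clones 1.1 and 1.2 (log2 difference 1.49, adjusted p = 0.0084). BCL2A1, an inhibitor of apoptosis and a target of MITF, had 6.06 and 1.46 TPM (log2 difference -1.47, adjusted p = 0.0065). Both calls were lost without library 2 of clone 1.1, at differences of 1.31 and -1.21.

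The largest differences in favour of clone 1.2 were in genes that were nearly silent in clone 1.1. KRT81, a hair keratin (chromosome 12, 52285913 to 52291534), was at 0.376, 0.439 and 3.76 TPM in clone 1.1 and at 483, 491, 565 and 305 TPM in clone 1.2. Nearly all of it was assigned to the protein-coding transcript KRT81-201. WT libraries held 5.09 to 18.9 TPM, so clone 1.2 was above and clone 1.1 below WT cells. The log2 difference was 7.74 (SE 0.51, adjusted p = 1.9e-08). The neighbouring keratin genes KRT86 and KRT7 were called in the same direction, with differences of 1.51 and 1.76, the former lost without library 2 of clone 1.1 (1.3). KRT81 and KRT86 are close paralogs, so reads may have been divided between them.

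TMPRSS15 encodes enteropeptidase, the protease that activates trypsinogen in the gut. Its TPM was 0.136, 0.049 and 0.014 in clone 1.1 and 103, 79.3, 94.5 and 132 in clone 1.2 (chromosome 21, 18269116 to 18485879). WT cells had 0.911 to 2.76 TPM and both R4 clones means of 0.122 and 0.101 TPM, so no A375 library outside clone 1.2 exceeded 2.76 TPM. The log2 difference was 6.58 (SE 0.21, adjusted p = 4.2e-12). The long non-coding RNA AL109763.1, annotated on the same strand across the start of TMPRSS15, was listed at 0 in all clone 1.1 libraries and at 4.65 to 12.6 TPM in clone 1.2. The division of reads between these overlapping genes is uncertain.

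UBBP4, a ubiquitin pseudogene near the centromere of chromosome 17 (22090743 to 22205154), was at 3.74 to 4.98 TPM in clone 1.1 and at 216 to 281 TPM in clone 1.2. The rise lay mainly in the transcript UBBP4-203, with mean TPM of 0.0199 and 194. WT cells were in between, at 22.3 to 30.3 TPM. The adjacent NCOR1P2 was listed at 0 in every clone 1.1 library and at 7.91 to 12.2 TPM in clone 1.2. Reads of pseudogenes can be shared with their parent genes, and these levels carry that uncertainty.

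**Figure D2:**
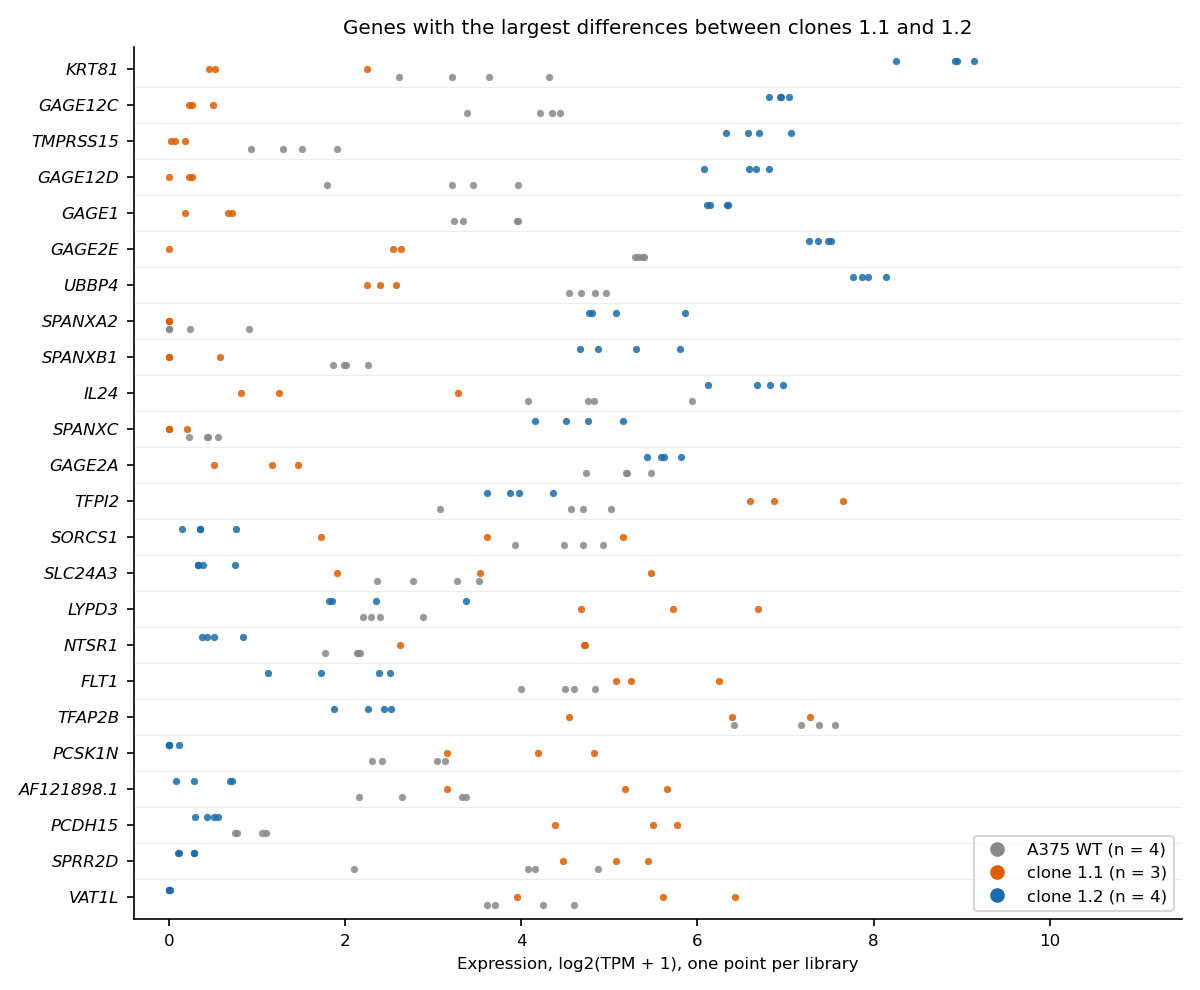
The 12 genes with the largest differences in each direction, by the naming rule, are listed with one point per library on a log2(TPM + 1) axis. WT points (grey) lie between the points of the clones in many rows, as for KRT81 and UBBP4, while for PCDH15 they lie near clone 1.2.

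Cancer-testis genes held many of the largest differences. Of 53 tested members, 39.6% were called, against 6.16% of all tested genes. Higher in clone 1.2 were 21 and in clone 1.1 0 (limma, with 4 negative differences at an unadjusted p under 0.05). The median log2 difference of the members was 0.47, against 0.05 for all tested genes. The 21 calls were also reached without library 1 of clone 1.1, while 16 were left in the libraries of low mitochondrial share. The lowest count over the alternatives was 12. The calls were uneven across the families. All 11 tested GAGE genes and all 5 tested SPANX genes were among them, but 1 of 9 MAGEA genes, 0 of 9 CT45A genes and 0 of 2 SSX genes. Of the 110 listed members 53 were tested, and of the 10 listed SPANX genes 5. SPANXA2 and SPANXC reached at most 0.885 and 0.471 TPM outside clone 1.2, so they entered the test only through that clone. For such genes a call is partly given by the filter, and the called shares carry that limit. The summed GAGE level was 5.40, 9.53 and 9.23 TPM in clone 1.1 and 560, 593, 606 and 493 TPM in clone 1.2. In WT cells it was 111 to 156 TPM, between the clones.

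The GAGE genes lie as tandem copies on the X chromosome and are so alike that their reads cannot be assigned with certainty, so the sum is firmer than any copy. The start regions show how alike they are. In RefSeq (GRCh38.p14) 9 of the 13 listed GAGE windows have the same 250 bases before the gene's start, including those of GAGE12C, GAGE12D, GAGE2A and GAGE1. This shared sequence is shown because the copies that carry it were called higher in clone 1.2, with the uncertainty of their reads. GAGE12G, whose listed window differs at 181 positions, was also called higher, by 2.95. A shifted start alone can make windows differ: those of GAGE1 starting at 49598763 and 49598770 count 164 and 0 differences. Whether GAGE12G carries the same sequence at a shifted position was not tested. The shared sequence is given for GAGE12C at chrX:49531927-49532176, plus strand, with each CG pair, the site of DNA methylation, in capitals.
GAGE12C: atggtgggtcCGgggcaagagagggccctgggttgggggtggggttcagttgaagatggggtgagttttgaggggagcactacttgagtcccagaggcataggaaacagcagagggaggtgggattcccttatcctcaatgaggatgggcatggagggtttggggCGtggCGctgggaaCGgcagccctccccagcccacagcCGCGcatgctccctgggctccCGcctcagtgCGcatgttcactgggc
It holds 8 CG pairs, and 56.3% of the 35116 RefSeq windows of the same length hold at least as many. DNA methylation was not measured in these libraries.

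GAGE12C was at 0.195, 0.172 and 0.414 TPM in clone 1.1 and at 131, 122, 122 and 112 TPM in clone 1.2 (log2 difference 6.61, SE 0.35, adjusted p = 1.5e-09). GAGE2E was at 0, 4.84 and 5.20 TPM against 164, 182, 177 and 153 TPM (log2 difference 5.68, adjusted p = 1.5e-05). The clones were apart in every library, and WT cells lay between them for both genes, at 9.46 to 20.6 and 38.2 to 41.0 TPM. The SPANX genes form a separate cluster further along the X chromosome. SPANXA2 was listed at 0 in all 3 clone 1.1 libraries and at 57.1, 26.9, 32.8 and 26.2 TPM in clone 1.2, with at most 0.885 TPM in WT cells. SPANXB1 was at 0, 0 and 0.495 TPM against 54.6, 28.2, 38.4 and 24.4 TPM, and both R4 clones were listed at 0 for it. Between SPANXB1 and SPANXC lies LDOC1, a gene outside this family, whose mean was 27.9 TPM in clone 1.1 and 102 TPM in clone 1.2 (log2 difference 1.84, adjusted p = 3.7e-06). Not every cancer-testis gene on the X chromosome moved: the summed MAGEA level was 942 to 1229 TPM in clone 1.1 and 797 to 1084 TPM in clone 1.2, with overlapping ranges.

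Several of the leading genes higher in clone 1.1 were also expressed in WT cells. VAT1L (chromosome 16, 77788530 to 77980107), related to a synaptic vesicle protein, was at 84.7, 47.6 and 14.5 TPM in clone 1.1, while 3 of the 4 clone 1.2 libraries listed it at 0 and the other at 0.012 TPM. WT cells had 11.2 to 23.3 TPM (log2 difference between the clones -5.32, SE 0.46, adjusted p = 6.6e-07). SPRR2D, a cornified envelope protein of keratinocytes, was at 32.7, 42.5 and 21.3 TPM in clone 1.1 and at 0.223, 0.214, 0.075 and 0.085 TPM in clone 1.2, with 3.30 to 28.2 TPM in WT cells. PCSK1N, an inhibitor of prohormone processing, followed the same order, with 7.94 to 27.4 TPM in clone 1.1, at most 0.084 TPM in clone 1.2 and 3.96 to 7.77 TPM in WT cells. The neurotensin receptor gene NTSR1 was at 5.18 to 25.5 TPM in clone 1.1, 0.298 to 0.798 TPM in clone 1.2 and 2.41 to 3.52 TPM in WT cells. The long non-coding RNA AF121898.1 was at 7.94 to 49.4 TPM in clone 1.1, at most 0.640 TPM in clone 1.2 and 3.45 to 9.32 TPM in WT cells. For these 5 genes clone 1.2 lay below every other A375 library.

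For PCDH15 clone 1.1 was the group apart. This cadherin of inner-ear hair cells (chromosome 10, 53802771 to 55627942) was at 53.5, 44.0 and 19.8 TPM in clone 1.1 and at 0.231 to 0.471 TPM in clone 1.2, next to 0.679 to 1.15 TPM in WT cells and a mean of 9.0 TPM in clone 4.2. Its log2 difference was -4.76 (SE 0.25, adjusted p = 1.5e-09). LYPD3, a membrane-anchored adhesion protein, was likewise near the WT level in clone 1.2 and above it in clone 1.1. Its TPM was 24.7, 102 and 51.7 in clone 1.1, 2.53 to 9.36 in clone 1.2 and 3.60 to 6.40 in WT cells. TFPI2, a secreted protease inhibitor, was at 96.1 to 199.8 TPM in clone 1.1, 11.2 to 19.5 TPM in clone 1.2 and 7.43 to 31.4 TPM in WT cells. The spread within clone 1.1 was wide for several leading genes. SLC24A3, a sodium-calcium exchanger, was at 43.4, 10.6 and 2.76 TPM there, and SORCS1, a sorting receptor, at 34.7, 11.2 and 2.32 TPM. Both lost their call in the libraries of low mitochondrial share, at differences of -3.15 and -2.99, as did TFPI2 at -2.57.

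Neural crest genes were divided between the clones. Of 25 tested, 5 were higher in clone 1.2 and 5 in clone 1.1, with a median of 0.11. The called share was 40.0%, against 6.16% of all tested genes. TFAP2B, an AP-2 transcription factor of the neural crest, was at 154, 82.9 and 22.4 TPM in clone 1.1 and at 3.79, 2.66, 4.43 and 4.73 TPM in clone 1.2. WT cells had 84.6 to 188 TPM, so the low level was that of clone 1.2 (log2 difference -3.80, SE 0.48, adjusted p = 5.9e-05). MSX2 and SNAI2, further transcription factors of this lineage, were lower in clone 1.2 by 2.18 and 2.04 on the log2 scale, with SNAI2 at 2.0 to 6.35 TPM against 0.060 to 0.355 TPM.

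Other members of the same list were higher in clone 1.2. L1CAM, an adhesion molecule of neural and glial cells, was at 16.1, 30.3 and 32.2 TPM in clone 1.1 and at 205, 135, 143 and 173 TPM in clone 1.2, next to 10.5 to 25.3 TPM in WT cells (log2 difference 2.64, SE 0.31, adjusted p = 3.0e-05). NGFR, the p75 neurotrophin receptor that marks neural-crest-like melanoma cells, was at 1.09, 1.58 and 7.78 TPM in clone 1.1 and at 20.8, 34.7, 15.9 and 14 TPM in clone 1.2. WT libraries ranged from 3.39 to 30.6 TPM for NGFR and overlapped both clones. SOX9, which often stands opposite to SOX10 in melanoma states, was at or under 0.109 TPM in clone 1.1 and at 1.37 to 2.51 TPM in clone 1.2. NGFR lost its call in the libraries of low mitochondrial share and without library 2 of clone 1.1, at differences of 2.70 and 2.30. The counts of 5 and 5 became 6 and 5 without library 1 of clone 1.1, 3 and 4 without library 2, and 2 and 3 in the libraries of low mitochondrial share.

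Genes of the undifferentiated melanoma state gave 4 calls higher in clone 1.2 and 1 higher in clone 1.1 among 28 tested. Their median was 0.36, and 17.9% were called, against 6.16% of all tested genes. TGM2, a transglutaminase that cross-links matrix, was at 28.9, 39.5 and 89.4 TPM in clone 1.1 and at 244, 338, 248 and 221 TPM in clone 1.2, with no overlap. In the libraries of low mitochondrial share the 4 calls fell to 1, and TGM2 was at 2.47 without a call. NRG1, a ligand of ERBB receptors, was at 0.242 to 1.89 TPM against 9.14 to 16.3 TPM (log2 difference 2.98, adjusted p = 9.9e-06). LOXL2, a lysyl oxidase that cross-links collagen, was higher in clone 1.2 by 2.09 and the matricellular gene CCN1 by 2.10. LOXL2 lost its call without library 2 of clone 1.1 (1.82). AXL, a receptor kinase typical of this state, had means of 170 and 306 TPM and was not called (log2 difference 0.97, adjusted p = 0.055).

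**Figure D3:**
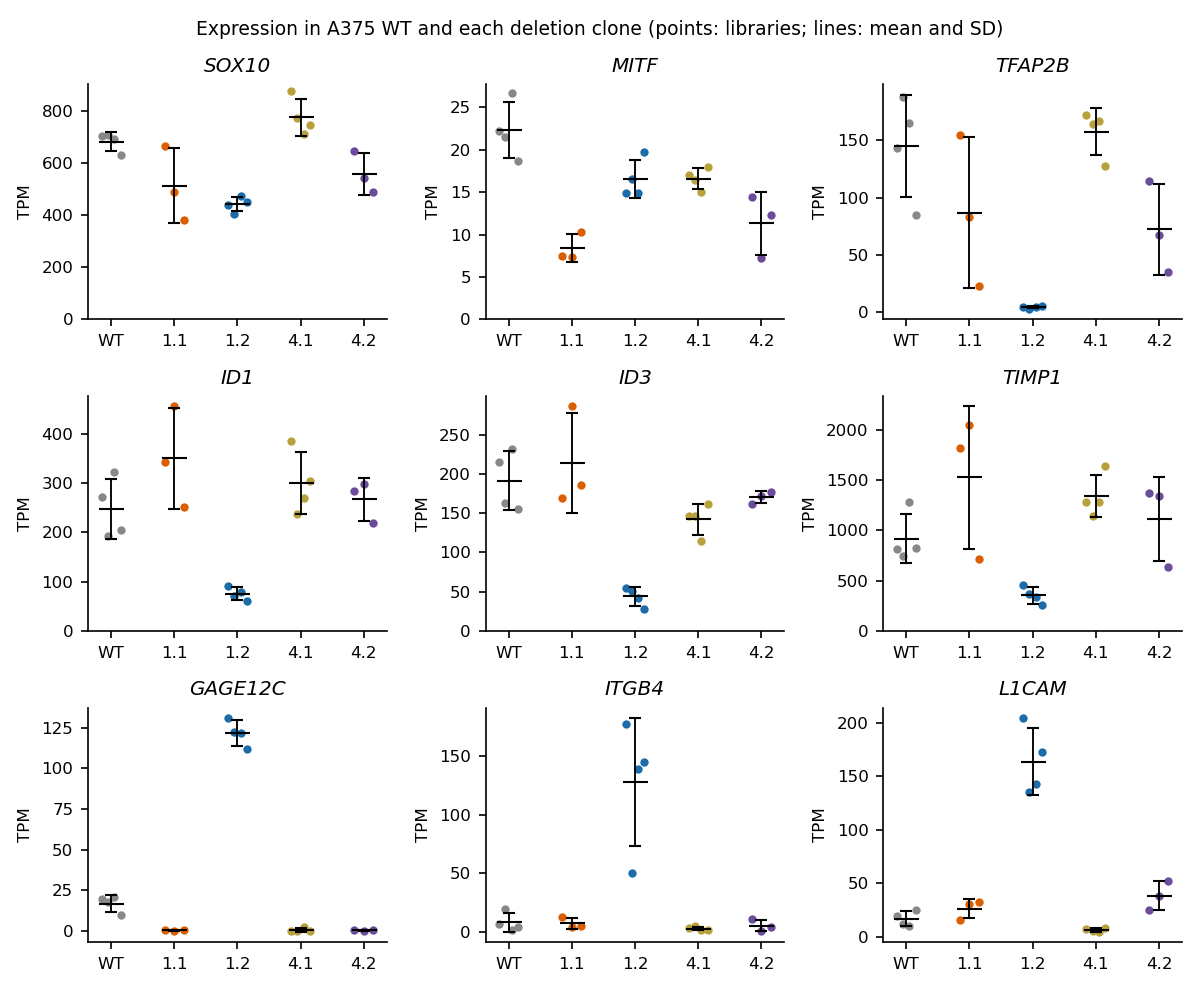
TPM of 9 genes in each A375 library, grouped as WT cells, R1 clones 1.1 and 1.2 and R4 clones 4.1 and 4.2, with black lines for the mean and SD of 3 or 4 libraries. Clone 1.2 is the lowest group for TFAP2B, ID1, ID3 and TIMP1 and the highest for GAGE12C, ITGB4 and L1CAM, whereas for SOX10 it overlaps clone 1.1.

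Targets and ligands of BMP signalling were lower in clone 1.2. BMPs are secreted ligands that act through SMAD proteins, and the ID genes, which encode inhibitors of helix-loop-helix transcription factors, are their classical direct targets. Of 31 tested genes of TGF-beta and BMP signalling, 7 were called (22.6%, against 6.16% of all tested genes). All 7 were higher in clone 1.1. The median of the list was -0.35, against 0.05 for all tested genes, and 2 members with a positive difference had an unadjusted p under 0.05 (limma). Without library 1 of clone 1.1 the count was again 7, and in the libraries of low mitochondrial share it was 4. ID1 (chromosome 20, 31605283 to 31606515) was at 343, 457 and 252 TPM in clone 1.1 and at 91.2, 71.6, 79.3 and 60.6 TPM in clone 1.2, with 192 to 323 TPM in WT cells. ID3 (chromosome 1, 23557918 to 23559794) was at 169, 287 and 186 TPM against 54.9, 51.5, 41.9 and 27.7 TPM, with 156 to 231 TPM in WT cells. For ID1 and ID3 clone 1.2 lay below WT cells and clone 1.1 overlapped them.

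ID2 was at 10.3, 24.6 and 13.2 TPM in clone 1.1 and at 1.11, 2.07, 1.04 and 0.772 TPM in clone 1.2. The log2 differences of ID1, ID2 and ID3 were -2.17 (SE 0.23), -2.86 (SE 0.29) and -2.26 (SE 0.23), with adjusted p of 8.0e-06, 4.0e-06 and 4.2e-06. Among the ligands, BMP7, BMP6 and BMP4 were lower in clone 1.2 by 2.10, 1.69 and 1.34, at means of at most 6.37 TPM in either clone. The pseudoreceptor BAMBI was lower by 1.18. The receptors were not called: BMPR1A and BMPR2 had differences of -0.23 (adjusted p = 0.38) and 0.10 (adjusted p = 0.81), and TGFBR2 one of 0.45 (adjusted p = 0.034), under the size of a call. PMEPA1, a TGF-beta target outside the list, was at 1021, 758 and 450 TPM in clone 1.1 and 189, 80.3, 217 and 89.8 TPM in clone 1.2.

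Receptors and effectors of other growth factor pathways moved in both directions. Among 22 tested receptors 2 were called in each direction, or 18.2%, against 6.16% of all tested genes. FLT1, a VEGF receptor on chromosome 13, was at 36.9, 74.7 and 32.8 TPM in clone 1.1 and at 2.32, 1.19, 4.22 and 4.71 TPM in clone 1.2, with 15.0 to 27.6 TPM in WT cells (log2 difference -3.58, SE 0.39, adjusted p = 1.0e-05). FGFR1 was lower in clone 1.2 by 1.24, and the collagen receptor DDR2 was higher by 1.29. Leaving out library 1 of clone 1.1 raised the receptors higher in clone 1.2 from 2 to 4, and leaving out library 2 left 1 in each direction, with FGFR1 at -0.91. Of 22 genes of ERK output, the pathway driven by oncogenic BRAF in many melanomas, SPRY4 and MYC were lower in clone 1.2 and EPHA2 was higher. The called share of these ERK output genes was 13.6%. SPRY4 was at 229, 81.1 and 43.2 TPM in clone 1.1 and overlapped clone 1.2. It lost its call without any 1 of 5 libraries, at -1.03 without library 1 of clone 1.1. MYC lost its call without that library or library 1 of clone 1.2 (-0.88 and -0.96), and EPHA2 without library 2 of clone 1.1 (0.92). Of 32 Wnt genes, WNT9A, TCF7, LEF1 and FZD7 were lower and NKD2 and FZD2 higher in clone 1.2 (18.8% called). LEF1, a transcription factor of the pathway, was at 49.0 to 82.7 TPM against 25.5 to 27.3 TPM. Without library 2 of clone 1.1 the Wnt calls fell from 4 lower and 2 higher to 1 and 0, with WNT9A at -1.13. Both higher calls fell below the size of a call under quantile and median-of-ratios scaling, and FZD7 lost its call under 9 of 18 alternatives.

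Matrix and adhesion genes differed in both directions. ITGB4, the beta chain of the laminin-binding integrin of hemidesmosomes, was at 12.7, 3.47 and 4.96 TPM in clone 1.1 and at 177, 50.1, 139 and 145 TPM in clone 1.2, next to 1.56 to 19.4 TPM in WT cells. Its log2 difference of 4.03 (SE 0.68, adjusted p = 0.00087) was the largest of 29 tested integrins and laminins, of which 4 were called, all higher in clone 1.2. The called share of this list was 13.8%, against 6.16% of all tested genes. In the libraries of low mitochondrial share 0 of the 4 calls were left, with ITGB4 at 3.40. Among 24 collagen chains, of which 29.2% were called, 5 were higher in clone 1.2 and 2 in clone 1.1. The former include COL1A1, and the part of the summed fibroblast markers in this list was not tested. COL12A1, a fibril-associated collagen, was at 1.03 to 4.88 TPM against 23.3 to 40.7 TPM (log2 difference 3.09, adjusted p = 1.7e-05). COL4A1, a basement membrane collagen, was lower in clone 1.2 by 1.18. COL1A1 lost its call without library 2 or library 3 of clone 1.1 (1.34 and 1.28), and COL4A1 without library 1 (-0.90). Without library 3 of clone 1.1 the collagens gave 3 and 6 calls, so that their lean turned. TIMP1, an inhibitor of matrix metalloproteases, was at 1816, 2042 and 716 TPM in clone 1.1 and at 461, 365, 334 and 254 TPM in clone 1.2. WT cells had 742 to 1279 TPM. Of 54 axon guidance genes, many of which also guide neural crest cells, 6 were higher in clone 1.2, led by SEMA3D and SEMA3F, and 2 in clone 1.1. Leaving out library 1 of clone 1.1 raised the 6 to 13, leaving out library 2 gave 4, and leaving out library 2 of clone 1.2 gave 10. In the libraries of low mitochondrial share the counts were 2 and 0. With all libraries, 14.8% of the axon guidance genes were called.

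Inflammatory and interferon genes leaned to clone 1.2. Of 25 NF-kB and acute-phase genes 6 were higher there and 0 in clone 1.1 (limma, with 1 at an unadjusted p under 0.05). The median of the 25 was 0.26, and 24.0% were called, against 6.16% of all tested genes. The 6 calls were also reached without library 1 of clone 1.1, while 4 were left without library 2 and in the libraries of low mitochondrial share, and the lowest count over the alternatives was 2. IL24, a cytokine of the IL10 family known from differentiating melanoma cells, was at 1.38, 0.763 and 8.76 TPM in clone 1.1 and at 68.3, 125, 112 and 101 TPM in clone 1.2, above the 15.9 to 60.4 TPM of WT cells (log2 difference 4.86, SE 0.53, adjusted p = 1.3e-05). Its neighbours of the same family, IL19 and IL10, were lower in clone 1.2 by 1.65 and 1.32, at no more than 6.48 TPM. Both were highest in library 2 of clone 1.1 and lost their call without it, at -1.18 and -0.81. IL1B was at 0.157 to 1.34 TPM against 4.71 to 9.84 TPM, and the chemokine CCL2 at 0.090 to 0.401 TPM against 2.27 to 6.75 TPM. NFKBIA, the feedback inhibitor of NF-kB, had a difference of 0.03 (adjusted p = 0.96). Of 36 interferon-stimulated genes 5 were higher in clone 1.2 and 1, CMPK2, in clone 1.1, with a median of 0.48. The called share was 16.7%. The 5 fell to 3 without library 2 or library 3 of clone 1.1, without library 4 of clone 1.2 and under quantile normalization. HERC5, a ligase for the ubiquitin-like protein ISG15, was at 0.906 to 1.97 TPM against 5.70 to 7.28 TPM. For MHC class I presentation limma called 0 of 19 genes, with 4 at an unadjusted p under 0.05. For class II it called 0 of 12, with 1 at such a p, next to 5075 of all 16692 tested genes.

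Of 31 genes of sterol and fatty acid synthesis 6 were higher in clone 1.2 and 0 in clone 1.1. By limma 0 negative differences had an unadjusted p under 0.05, and the median was 0.47. The called share was 19.4%, against 6.16% of all tested genes. SCD, the stearoyl-CoA desaturase, was at 106, 55.4 and 44.5 TPM in clone 1.1 and at 186, 188, 198 and 208 TPM in clone 1.2. STARD4, a sterol carrier, was at 11.3, 2.36 and 1.38 TPM against 17.4 to 24.0 TPM. Library 1 of clone 1.1 was the nearest to clone 1.2 for both genes. Without library 2 or library 3 of clone 1.1 the 6 calls fell to 1, with SCD and STARD4 no longer called, without library 1 there were 8, and in the libraries of low mitochondrial share 0.

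Genes of hypoxia and glycolysis had the highest median of the 31 gene lists, 0.82, and 28 of 29 members had a positive difference. Yet 1, the histone demethylase KDM3A, was called, or 3.45%, against 6.16% of all tested genes. CA9, a carbonic anhydrase induced by low oxygen, had means of 37.3 and 222 TPM with a difference of 3.10 whose SE was 2.0 (adjusted p = 0.31), so the spread between libraries covered it. KDM3A lost its call under 10 of 18 alternatives, among them leaving out library 2 or library 3 of clone 1.1 or library 1, 3 or 4 of clone 1.2, and without library 2 of clone 1.2 the list had 7 calls. S-phase genes had a median of -0.36, with 26 of 30 members negative. By limma 0 of them and 0 of 32 G2/M genes were called, and 0 had an unadjusted p under 0.05. Of 83 cytosolic ribosomal protein genes 0 were called, with 4 at an unadjusted p under 0.05. Among all 16692 tested genes, 5075 had such a p.

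Imprinted genes, of which only the copy from 1 parent is normally active, gave 4 calls among 20 tested. NDN, from the imprinted region of chromosome 15, was at 4.22 to 4.55 TPM in clone 1.1, 13.6 to 19.2 TPM in clone 1.2 and 12.3 to 14.8 TPM in WT cells (log2 difference 1.62, SE 0.15, adjusted p = 1.1e-06). GRB10, an adaptor that dampens insulin signalling, was at 9.76 to 14.7 TPM in clone 1.1, 1.48 to 2.46 TPM in clone 1.2 and 11.9 to 15.5 TPM in WT cells (log2 difference -2.15, SE 0.17, adjusted p = 2.0e-07). Thus clone 1.1 was the one below WT cells for NDN and clone 1.2 for GRB10. PLAGL1 and ZDBF2 were higher in clone 1.2 by 1.23 and 1.12, and ZDBF2 lost its call without library 2 or library 3 of clone 1.1 or library 4 of clone 1.2 (1.05, 0.95 and 0.96).

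**Figure D4:**
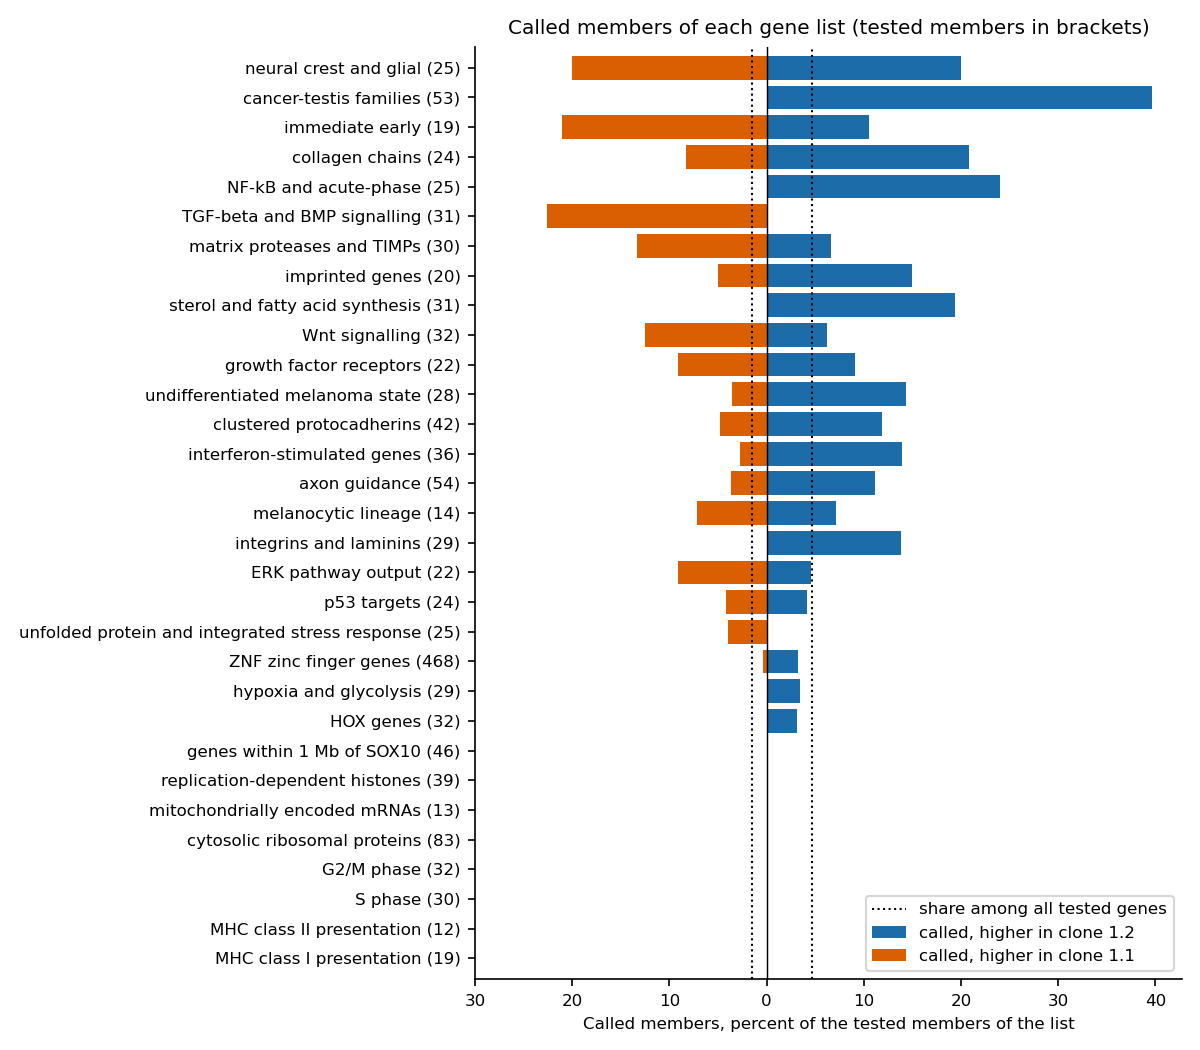
For each gene list the bars give the percentage of its tested members called higher in clone 1.2 (blue, right) or higher in clone 1.1 (orange, left), and dotted lines mark the same percentages over all tested genes, 4.68% and 1.47%. Cancer-testis families lie wholly on the right and TGF-beta and BMP signalling wholly on the left, while neural crest genes reach equally far on both sides.

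The remaining named lists lay on both sides of the 6.16% called among all tested genes. Called shares were 31.6% for immediate early genes, 16.7% for clustered protocadherins and 8.33% for p53 targets. Matrix proteases and their inhibitors also lay above 6.16%, while HOX, ZNF and stress response genes lay below it. Clustered protocadherins, cell-surface molecules of neurons, had 5 members higher in clone 1.2 and 2 in clone 1.1 of 42 tested, led by PCDHGA2 with a difference of 1.46 and PCDHA1 with -1.35. Under quantile normalization the protocadherin counts were 2 and 3, so that the lean turned, and in the libraries of low mitochondrial share 0 and 0. Of 32 HOX genes 1, HOXB8, was called, higher in clone 1.2 by 1.35 (adjusted p = 0.046). It lost that call under 13 of 18 alternatives, both rescalings included, and stood at 0.91 without library 3 of clone 1.1. Immediate early genes had 2 higher in clone 1.2 and 4 in clone 1.1 of 19, the latter including EGR3 and KLF4, of which KLF4 lost its call without library 2 of clone 1.1 (-1.23). Zinc finger genes of the ZNF series had 15 higher in clone 1.2 and 2 in clone 1.1 of 468, or 3.63% called against the 6.16% of all tested genes. The 15 fell to 6 under quantile normalization, 9 under median-of-ratios scaling and 2 in the libraries of low mitochondrial share. SLC7A11, the cystine transporter, was the one call among 25 stress response genes, lower in clone 1.2 by 1.82. Of 24 p53 targets BTG2 was higher and AEN lower in clone 1.2, and BTG2 lost its call without library 4 of clone 1.2 (0.97) or library 2 of clone 1.1. Matrix proteases and their inhibitors had 2 higher and 4 lower of 30, ADAMTS12 with a difference of 2.58 and MMP1 with -1.82 among them. MMP1 was at 19.2 TPM in library 2 of clone 1.1 and at 1.24 and 2.41 TPM in the others, and without that library it stood at -0.87 with no call. The 2 higher rose to 6 without library 1 of clone 1.1.

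Whole chromosome regions also differed between the clones. The median log2 difference was -0.36 for the 299 tested genes of chromosome 13 and 0.39 for 746 genes on the part of chromosome 1 beyond its widest gap between tested genes, whose first gene starts at 143419625. The 932 genes before that gap had a median of 0.04. Every other autosome and the X chromosome lay between -0.04 and 0.12. On chromosome 13, 29.1% of the genes had a positive difference, and on the later part of chromosome 1 79.9% did, next to 54.5% of all tested genes.

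Set against WT cells, a different clone lay apart in each region. Relative to the WT mean, and less each library's median over all genes, chromosome 13 stood at -0.41, -0.39, -0.39 and -0.41 in clone 1.2 and at -0.04, 0.02 and 0.00 in clone 1.1. The later part of chromosome 1 stood at -0.27, -0.27 and -0.25 in clone 1.1 and at 0.07, 0.05, 0.08 and 0.07 in clone 1.2. Thus the shift of chromosome 13 was that of clone 1.2, and most of that of chromosome 1 was that of clone 1.1. WT libraries stayed within -0.02 and 0.03 for both regions.

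The shifts ran along the chromosomes rather than resting on a few genes. In successive windows of 100 tested genes, the last 7 windows of chromosome 1, from 149606334 to its end, had medians of 0.24 to 0.47, and those before 116392247 lay between -0.08 and 0.21. On chromosome 13, in windows of 50 genes, 5 of 6 medians were between -0.57 and -0.21, and the window from 76990660 to 101053776 stood at 0.02. The genes of chromosome 13 with the highest expression among those called lower in clone 1.2 were POMP, a proteasome maturation factor, COL4A1 and the transcription regulator TSC22D1, with differences of -1.26, -1.18 and -1.06. POMP and TSC22D1 lost their calls without library 2 of clone 1.1 (-1.14 and -0.79) or library 4 of clone 1.2 (-1.14 and -0.96). On chromosome 1 the corresponding genes called higher in clone 1.2 were EPHA2, which lies before the gap, DPM3, a subunit of a mannosyl transferase, at 1.18, and the metabolite repair enzyme NAXE at 1.16, the last lost without library 2 of clone 1.1 (0.95). DNA copy number was not measured here.

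**Figure D5:**
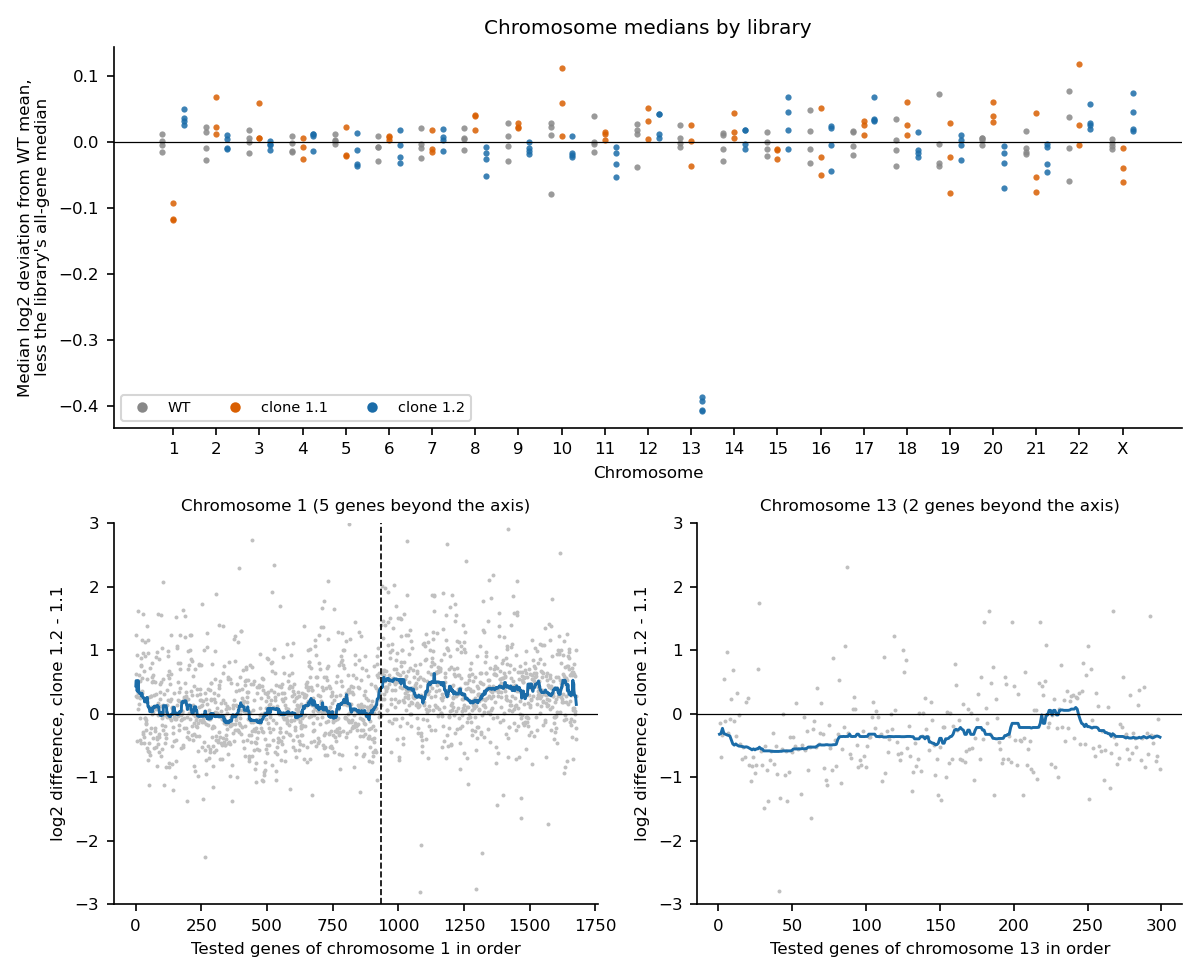
Top, median of log2(TPM + 1) relative to the WT mean for each chromosome and library, less the library's median over all genes. Bottom, log2 differences of the genes of chromosomes 1 and 13 in order with their running median over 51 genes; the dashed line is the widest gap of chromosome 1, and 5 and 2 genes lie beyond the axis.

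These regions held a minor share of the calls. The later part of chromosome 1 had 81 genes called higher in clone 1.2 and 10 in clone 1.1, or 12.2% of its genes against 6.16% of all, and chromosome 13 had 13 and 14. Outside both, 910 genes were called, 88.5% of the total, and 75.6% of these were higher in clone 1.2. Chromosome 20, the next farthest from the median of all genes, was at -0.04, with PMEPA1, PRELID3B and SNRPB2 as its most expressed genes called lower in clone 1.2. SNRPB2 lost its call without library 2 of clone 1.1 (-1.15).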

How the data were processed

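RNA was selected by its poly-A tail and copied with random hexamers, per the labels' protocols. The deposited values are TPM per gene and per transcript; the submitters' processing notes name DRAGEN and GRCh38, and the annotation release is not given in the sources used here. Columns were matched to samples by title, and 6 columns of values that match no sample were not used. The gene table held 200 repeated lines, identical to their originals, which were kept in 1 copy. GENCODE 29 gave positions for 58453 identifiers and none for 2218.

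Genes with at least 1 TPM in at least 3 of 18 A375 libraries entered a linear model of log2(TPM + 1), run in limma 3.58.1 (R 4.3.3) with a variance trend, 1 term per group and no covariate, and Benjamini-Hochberg adjustment over all tested genes. A gene could thus enter through the libraries of 1 clone alone, as SOX9 and SPANXA2 did through clone 1.2. The depth behind the TPM is unknown. The procedure was tested on simulated data. The clones, gene lists and thresholds were chosen with earlier results of these data known. Genes were named by rule: SOX10 and MITF, the 12 largest called differences per direction without overlap and with a mean of at least 5 TPM in the higher clone, up to 4 called members per list and direction, 3 genes for each of the 3 chromosomes farthest from the median, and markers. The remaining named genes (KRT7, KRT86, AL109763.1, NCOR1P2, LDOC1, IL19, IL10, BMP4, BMP6, BAMBI, the BMP and TGF-beta receptors, AXL, NFKBIA, CA9) were chosen after their values were seen. Alternatives covered the pseudocount, filters, scaling, the samples fitted, the mitochondrial share, a replicate block and each library left out. Results for some genes are not reported here.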

Additional observations from a re-analysis of the deposited data

Results flagged for a closer look

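In 6 of the 137 named genes (4.38%) 1 of the 4 clone 1.2 libraries lay far from the other 3 by Dixon's ratio, where chance gives about 5%. Library 3 was high for BMP7, at 0.929 TPM against 0.327 to 0.401 TPM, and for VAT1L, at 0.012 TPM where the others list 0. Library 1 was high for NKD2 at 1.70 TPM against 1.37 to 1.43 TPM, for SLC24A3 at 0.681 TPM against 0.254 to 0.312 TPM, and for PCSK1N at 0.084 TPM against 0. Library 4 was low for ADAMTS12, at 18.6 TPM against 22.5 to 23.3 TPM. Every one of these values stayed on its clone's side of all 3 clone 1.1 libraries.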

How the results depend on the processing

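Of the 24 leading genes 20 were called under each of 18 alternatives and 0 reversed. The others were SLC24A3, SORCS1, TFPI2 and LYPD3. Of 123 called genes named by the rule, 45 were called under every alternative and 0 reversed. The libraries of low mitochondrial share gave 236 calls, 186 higher in clone 1.2 and 50 in clone 1.1, from fewer libraries. A mean of at least 5 TPM gave 495 (336 and 159) from 11000 genes tested, and no minimum size gave 2202 (1510 and 692). Quantile normalization called 386 genes higher in clone 1.1, and the cause was not tested. Leaving out 1 library at a time gave 670 to 1456 calls, 518 to 1103 of them higher in clone 1.2 and 152 to 353 in clone 1.1, the lowest without library 2 and the highest without library 1 of clone 1.1. The SOX10 difference then ranged from -0.37 to 0.031, positive without library 1 of clone 1.1. Among uncalled markers, S100B turned positive without that library (0.79), without library 2 (0.0040) or 4 (0.13) of clone 1.2 and with the replicate block (0.13). S100A1 did so without library 1 of clone 1.1 (0.30), and KRT10 in the libraries of low mitochondrial share (0.011). For these the cause was not tested. With 1 library left out, S100B ranged from -0.52 to 0.79 and S100A1 from -1.49 to 0.30. The chromosome 13 median was -0.49 with a mean of at least 5 TPM and -0.50 under quantile normalization.

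With the replicate number as a block, fitted to both clones only and without library 4 of clone 1.2, 414 genes were called (314 and 100), 404 of them also called without the block. Deviations of libraries with the same number correlated at 0.37, 0.24 and -0.20, so the numbers were not taken to pair the libraries, and not every library correlated best with its own number. Over all genes, however, each clone 1.1 library correlated best with the clone 4.2 library of the same number (0.981, 0.984 and 0.982), and the number also matched for some best partners among WT and R4 libraries, as for library 2 of WT cells and of clone 4.1 (0.979). Whether same-numbered libraries share a batch was not tested.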
